A study of Mus musculus with 4 samples.

Results

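Genomic imprinting was examined through 35 mouse genes in RNA sequencing of sorted Ret-EGFP cells from dorsal root ganglia, the sensory ganglia beside the spinal cord. The genes were listed by name as imprinted, with Cdkn1c at their head. They were chosen with the differences between the P2-mouse and embryo libraries already known, so those differences are given as a description of these genes. By symbol, 34 of the 35 were found among the 41388 Ensembl genes of the count files, and Snrpn was not. The 4 libraries come from 2 groups of pools: female A and male A, described as pools of sorted ganglia from a P2 mouse, and male B and male C, described as pools from an embryo. Every library is labelled stage P2, strain C57BL/6 and genotype Tg(Ret-EGFP)SJ/, and the design text describes heterozygotes with EGFP knocked in at the Ret locus. By the submitters' description, each library holds ganglia of spinal levels T11 to S1 from 1 animal, 40 ganglia for female A and 20 for each male. The label of female A does not say why 1 animal gave more ganglia than each male did. The labels do not say whether the word embryo marks another age, a batch or a colony, so P2-mouse pair and embryo pair are used here as names of labels only. Ret heterozygosity is shared by all 4 libraries, per the design text, and no library without the reporter was analysed here.

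An imprinted gene is transcribed mainly from the copy inherited from a single parent, chosen by DNA methylation laid down in the germ line at an imprinting control region. Imprinted genes lie in clusters in which a control region often drives a long noncoding RNA on one parental chromosome and keeps neighbouring protein-coding genes silent on the same chromosome. Many of them act on fetal growth, and in the nervous system several are known for high expression in neurons. Gene counts do not part the parental copies, so no value given here says which copy was transcribed.

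The libraries held between 17388493 and 28066448 gene counts. Over 15568 genes that passed the filter on low counts, log2 CPM (the count scaled to library size) correlated at 0.992 between female A and male A, at 0.988 between male B and male C, and at 0.949 to 0.957 between libraries of different pairs. The gated reporter gene Ret had 223 and 225 CPM in female A and male A, against 283 and 249.8 CPM in males B and C. All 10 sensory neuron markers had counts in every library. Markers of other cells moved with the pairs: the 10 Schwann cell markers summed to 4639 and 7504 CPM in female A and male A, against 3118 and 3132 CPM in males B and C. Of these sums, Pmp22 alone held 2595 and 4084 CPM in the P2-mouse pair, against 2570 and 2455 CPM in the embryo pair. Summed over 10 fibroblast markers, the level was 1340 and 1489 CPM in the P2-mouse pair, against 353 and 366 CPM in the embryo pair, with Twist2 at 0 in all 4 libraries. The sensory neuron markers summed to 7973 and 7772 CPM in the P2-mouse pair, against 13970 and 13013 CPM in the embryo pair. Tubb3 alone held 1945 and 1790 CPM of these, against 5736 and 5400 CPM. Satellite glia markers summed to 537 and 560.5 CPM in the P2-mouse pair, against 434 and 762 CPM in the embryo pair. Apoe alone held 185 and 156 CPM of these, against 96.9 and 349.5 CPM in males B and C. Erythroid markers summed to 41.9 and 55.0 CPM in the P2-mouse pair, against 17.5 and 5.47 CPM in the embryo pair. Endothelial and mural markers summed to between 96.5 and 104 CPM in the 4 libraries, and the 6 macrophage markers to at most 4.01 CPM. Rgs5 alone held 56.6 and 69.2 CPM of the endothelial and mural sums in the P2-mouse pair, against 67.3 and 60.8 CPM in the embryo pair. In bulk RNA, fewer cells of a type and less RNA per cell cannot be told apart.

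The promoter windows of 3 members are shown because they belong to neighbouring genes: Kcnq1ot1 and Slc22a18 of the Kcnq1 domain, whose differences between the pairs had opposite signs, and Peg3, whose window also holds most of that of Usp29. Each is the RefSeq window of 250 bases before to 50 bases after the annotated start in build GRCm38.p6, printed 5′ to 3′ on the gene's own strand, with CG dinucleotides in capitals. CG is the letter pair at which mammalian DNA is methylated.
Kcnq1ot1: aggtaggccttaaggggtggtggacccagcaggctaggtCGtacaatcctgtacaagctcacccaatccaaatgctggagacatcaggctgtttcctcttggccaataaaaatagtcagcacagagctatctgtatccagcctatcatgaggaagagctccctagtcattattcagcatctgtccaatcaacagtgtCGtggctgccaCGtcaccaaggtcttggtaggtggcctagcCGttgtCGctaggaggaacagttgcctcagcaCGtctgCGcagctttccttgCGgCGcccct
Slc22a18: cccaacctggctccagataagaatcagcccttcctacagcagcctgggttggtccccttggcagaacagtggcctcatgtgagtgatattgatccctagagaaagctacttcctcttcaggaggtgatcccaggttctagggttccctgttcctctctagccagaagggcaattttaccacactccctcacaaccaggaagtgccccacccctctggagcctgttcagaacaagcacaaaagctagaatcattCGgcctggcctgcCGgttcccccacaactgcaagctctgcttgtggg
Peg3: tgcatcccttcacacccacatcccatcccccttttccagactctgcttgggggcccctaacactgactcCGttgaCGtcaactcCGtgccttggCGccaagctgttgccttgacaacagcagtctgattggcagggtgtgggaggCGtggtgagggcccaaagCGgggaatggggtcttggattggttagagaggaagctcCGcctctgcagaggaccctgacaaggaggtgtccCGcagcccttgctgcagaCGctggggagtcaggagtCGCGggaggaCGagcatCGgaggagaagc
The Kcnq1ot1 window lies at chr7:143296498-143296797 on the minus strand and holds 9 CG. The Slc22a18 window lies at chr7:143473539-143473838 on the plus strand and holds 2. The Peg3 window lies at chr7:6730370-6730669 on the minus strand and holds 13, and it shares 263 of its 300 bases with the window of Usp29, which starts on the other strand. CG reads the same on both strands. RefSeq gave 43 windows for 29 members, with a median of 11 CG, against a median of 7 over all 32851 windows. At least 1 CG stood in 42 of the 43 member windows and in 94.6% of all windows. Cdkn1c, H19, Sgce, Peg10 and Rtl1 had no window, and Impact was not looked up. Methylation was not measured in these libraries.

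Per length, the members covered most of the range of expression in these cells. RPKM (CPM divided by exon length in kilobases) is the scale used wherever genes are compared with each other. Ndn was the highest of the 34 members found by symbol, with a mean of 404 RPKM over the 4 libraries, above 99.8% of all genes listed. Nnat followed at 187 RPKM, Nap1l5 at 63.0 RPKM, Impact at 51.1 RPKM and Cdkn1c at 28.0 RPKM. Ndn encodes necdin, a MAGE family protein of postmitotic neurons, and Nnat encodes neuronatin, a small membrane proteolipid of the endoplasmic reticulum. These were the only 2 members at or above 100 RPKM, a level that 645 genes reached in all. At or above 1 RPKM there were 17 of the 34 members. Gm38393, a feature that spans the exons of Snrpn and is not counted as a member, had a mean of 445 RPKM. The growth genes of the H19-Igf2 cluster lay lower, H19 at a mean of 10.9 RPKM and Igf2 at 3.33 RPKM. At the other end, Dlk1, Rian and Rtl1 had no count in any of the 4 libraries. A count of 0 among 93024832 counts allows up to 0.0322 CPM, by a limit of 3 counts that covers counting error only.

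**Figure D1:**
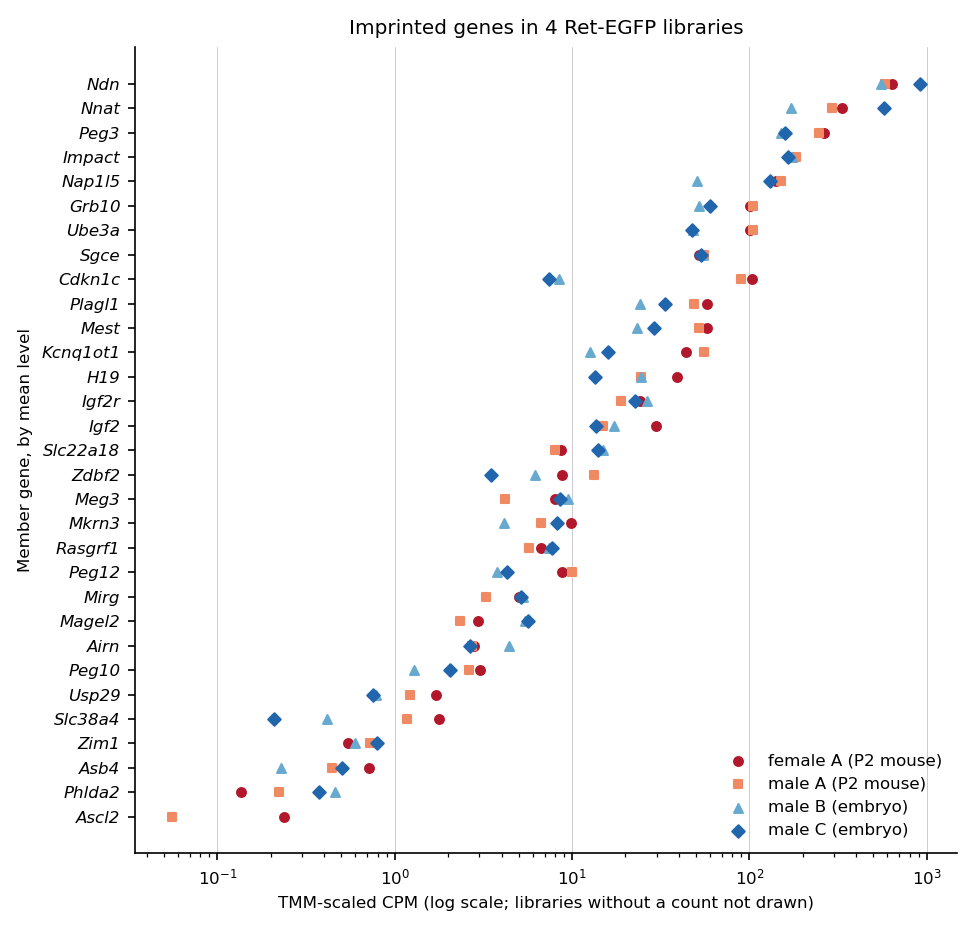
TMM-scaled CPM on a log axis (x) for the 31 members with a count (y, ordered by mean level), 1 point for each library. Red and orange mark female A and male A of the P2-mouse pair, light and dark blue male B and male C of the embryo pair. Cdkn1c shows the widest gap between the pairs among members above 5 CPM, and male B is the lowest library in Nnat and Nap1l5.

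The pairs were compared with the edgeR quasi-likelihood F test over all 15568 genes, with an adjusted p of 0.05 as the threshold. Of the 34 members, 29 passed the filter on low counts and 5 did not. In the P2-mouse pair, 10 of the 29 were called higher, with 22.3% of all genes tested called higher, and 2 were called lower, with 20.0% of all genes called lower. The median log2 fold change was 0.67 over the 29 members and 0.02 over all genes tested. Both P2-mouse libraries lay above both embryo libraries for 15 of the 29, with 37.4% for all genes, and both lay below for 5, with 35.9% for all genes. Because the members were chosen with these differences known, and because a member high in only 1 pair passes the filter through that pair, nothing is read from these counts. Of 19 members known for expression from the paternal copy, 7 were called higher and 1 lower, with a median log2 fold change of 0.69. Of 8 known for expression from the maternal copy, 1 was called higher and 1 lower, with a median of -0.17. Ube3a and Grb10, whose expressed copy depends on the cell type, were left out of that split. With offsets for GC content and length fitted for each library, the median was 0.25 over the members and -0.06 over all genes. Without female A it was 0.20 over the members and -0.01 over all genes.

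**Figure D2:**
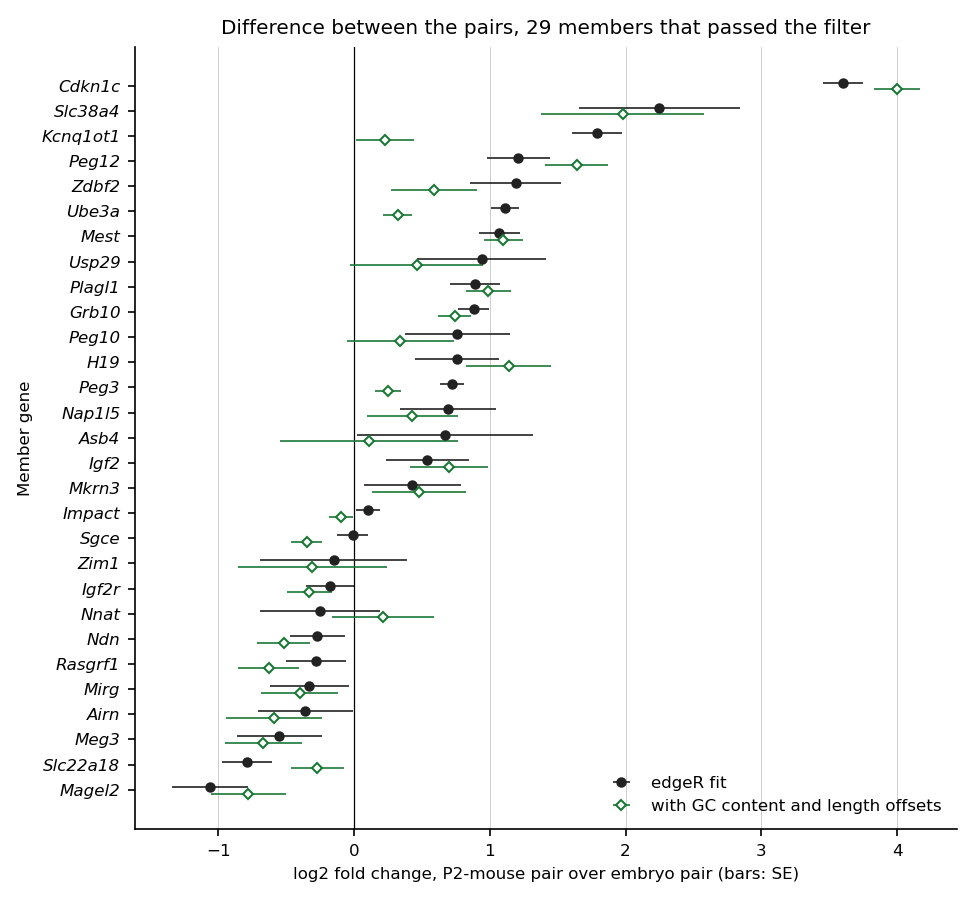
Log2 fold change of the P2-mouse pair over the embryo pair (x) for the 29 members that passed the filter (y), with bars for the SE. Filled black circles are from the edgeR fit and open green diamonds from the fit with offsets for GC content and length; Cdkn1c stays at the right in both, at 3.60 and 4.00, and Kcnq1ot1 lies at 0.23 with the offsets and at 1.79 without them.

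The Kcnq1 domain of chromosome 7 held the member with the widest gap. Cdkn1c encodes p57Kip2, a CDK inhibitor of the Cip/Kip family that holds cells out of the division cycle and that is expressed from the maternal copy. Its gene lies at chr7:143458350-143461050 on the minus strand (GRCm38), with 4 exon parts and 1931 exon bases. Cdkn1c had 103 and 90.0 CPM in female A and male A, against 8.44 and 7.44 CPM in males B and C. Both P2-mouse libraries were high and both embryo libraries low, with no overlap and little spread within either pair. The pair means differed 12.1-fold, with a log2 fold change of 3.60 (SE 0.148), and 4.00 with the offsets. Of all 15568 genes tested, 69 had a larger log2 fold change than Cdkn1c, and of the 10420 with a mean of at least 5 CPM, 9 had. Without female A the value was 3.51. Per length, the deposited values were 55.8 and 48.1 RPKM in the P2-mouse pair, against 4.20 and 3.70 RPKM in the embryo pair.

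Cell type markers differed beside Cdkn1c. Over all genes tested, 22.3% were called higher in the P2-mouse pair and 20.0% lower. Of the 10 Schwann cell markers, 9 rose in the P2-mouse pair and none fell (edgeR, adjusted p under 0.05), with a median log2 fold change of 2.49. Of the 8 fibroblast markers tested, the collagen genes Col1a1, Col1a2 and Col3a1 rose with Pdgfra and Dcn, and Mfap5 fell, with a median of 1.47. Dcn rose by only 0.28, stood at -0.22 and uncalled with the offsets, and lost its call without female A; no fibroblast marker was called lower without male A or with sex as a term. Among the 7 satellite glia markers, Cdh19, Kcnj10 and Plekhb1 rose, by 2.83, 2.20 and 1.79 on the log2 scale, while Fabp7 and Glul fell by 1.30 and 0.59. Of the 7 endothelial and mural markers tested, Cdh5, Kdr and Flt1 rose, by 1.76, 2.21 and 2.26, and Acta2 fell by 1.57. These 4 were at or under 3.98 CPM in every library. With the offsets only Cdh5 of the 4 was still called, Rgs5 was called lower, and with sex as a term no marker of this list was called. Of the 10 sensory neuron markers, the sodium channel gene Scn9a rose, by 0.86, and 6 fell, with a median of -0.52. With the offsets none rose and 5 fell, with a median of -0.43. Scn9a then stood at 0.07, and Uchl1 and Prph, lower without the offsets, at -0.29 and -0.19, all uncalled. Elavl4 was called lower with the offsets but not without them. Within the P2-mouse pair the Schwann cell sum was 4639 CPM in female A and 7504 CPM in male A, whereas Cdkn1c was 103 CPM in female A and 90.0 CPM in male A. The fibroblast sum was 1340 CPM in female A and 1489 CPM in male A. The part of these cells in the difference of Cdkn1c was not tested.

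**Figure D3:**
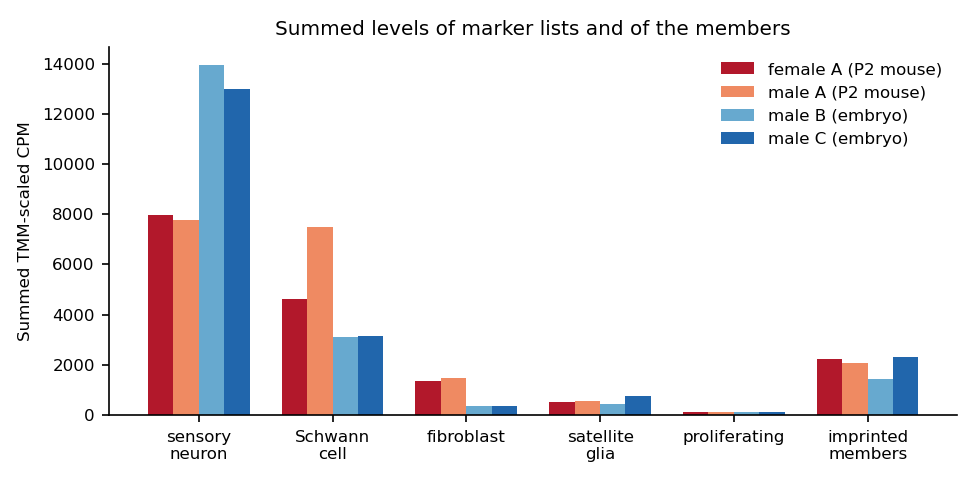
Summed TMM-scaled CPM (y) of 5 marker lists and of the imprinted members (x), 1 bar for each library, P2-mouse libraries in red and orange and embryo libraries in blue. Schwann cell and fibroblast sums are higher and sensory neuron sums lower in the P2-mouse pair; the members' sums of 2230 and 2088 CPM in the P2-mouse pair stand beside 1452 and 2300 CPM in the embryo pair.

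Other regulators of the cell cycle were measured beside Cdkn1c. Cdkn1a and Cdkn1b encode p21 and p27, the other Cip/Kip inhibitors. Cdkn1a had 166 and 162 CPM in the P2-mouse pair, against 155 and 139 CPM in the embryo pair, with a log2 fold change of 0.16 (SE 0.0964). Cdkn1b had 102 and 109 CPM in the P2-mouse pair, against 91.3 and 101 CPM in the embryo pair, with a log2 fold change of 0.13 (SE 0.104). Neither passed the edgeR test, but with the offsets Cdkn1a was called higher, at 0.48, and Cdkn1b lower, at -0.42. Over all genes tested, 22.3% were called higher in the P2-mouse pair and 20.0% lower. Of the 21 CDK inhibitors, cyclins and partners tested, 9 rose and 4 fell, with a median log2 fold change of 0.67. Without male A, and with sex as a term, 5 rose and 2 fell, and without female A 2 fell. The most abundant, Cdk5, a kinase of postmitotic neurons, fell by 0.84, and Cdkn2d, which encodes the inhibitor p19, fell by 0.94, or by 0.58 and 0.35 with the offsets. Cdk4 and the cyclin gene Ccne1 fell by 0.37 and 1.06, both calls being lost without female A, and Cdk4 stood at -0.04 with the offsets and was not called. The D-type cyclin genes Ccnd2 and Ccnd1 rose by 1.46 and 1.84. The 8 proliferation markers summed to 119 and 133 CPM in the P2-mouse pair, against 118 and 123 CPM in the embryo pair, with Top2a and Mki67 higher and Cdk1 lower by the edgeR test. With the offsets Top2a stood at 0.09, against 0.92 without them, and was not called, and the call of Cdk1 was lost without female A. No proliferation marker was called lower without male A, without male C or with sex as a term, and without male A 1 was called higher.

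**Figure D4:**
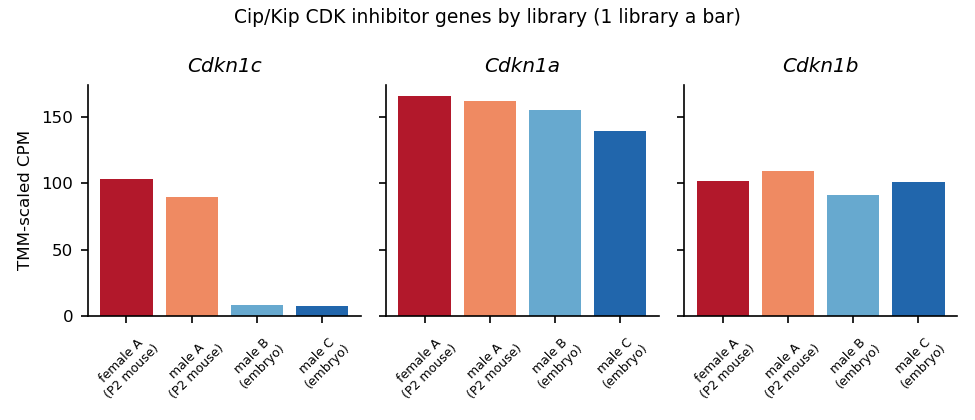
TMM-scaled CPM (y, from 0) of the 3 Cip/Kip inhibitor genes, 1 bar for each library (x), P2-mouse libraries left of the embryo libraries. Cdkn1c differs 12.1-fold between the pair means, whereas the 4 bars of Cdkn1a lie between 139 and 166 CPM and those of Cdkn1b between 91.3 and 109 CPM.

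Kcnq1ot1 is the paternally transcribed noncoding RNA of the same domain, known for silencing its neighbours on the paternal chromosome. It had 44.0 and 55.3 CPM in female A and male A, against 12.6 and 16.0 CPM in males B and C. Both P2-mouse libraries were above both embryo libraries, with a log2 fold change of 1.79 (SE 0.181). The feature is a single exon of 84395 bases with 40.3% GC, and with the offsets for GC content and length the value was 0.23 and was not called. Slc22a18, a membrane transporter gene of the domain, went the other way. It had 8.70 and 7.96 CPM in the P2-mouse pair, against 14.9 and 14.0 CPM in the embryo pair, a log2 fold change of -0.79 (SE 0.187). The pairs did not overlap, but the call was lost with the offsets, at -0.27, with sex as a term, and without female A or without male A. Phlda2, a brake on placental growth, had 4 and 4 counts in the P2-mouse pair, against 10 and 9 in the embryo pair. Ascl2, a bHLH transcription factor of the trophoblast, had 7 and 1 counts in the P2-mouse pair and none in the embryo pair. Neither passed the filter. In the Kcnq1 domain, Cdkn1c and Slc22a18, both known for maternal expression, were called in opposite directions.

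Insulin-like growth factor 2, the fetal growth factor made by Igf2, and the noncoding RNA H19 share a control region on chromosome 7. Igf2 had 29.6 and 14.98 CPM in female A and male A, against 17.2 and 13.7 CPM in males B and C. Female A alone stood high, and male A lay within the embryo pair, so the pairs overlapped. The log2 fold change was 0.54 (SE 0.304) and was not called. H19 had 39.3 and 24.6 CPM in female A and male A, against 24.4 and 13.5 CPM in males B and C. Female A was again the highest library, and the pairs were parted only by the gap from 24.6 CPM in male A to 24.4 CPM in male B. The log2 fold change of 0.76 (SE 0.309) was not called. H19 was called higher with the offsets, at 1.14, and without male B, and Igf2 was called higher without male A.

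Igf2r encodes the receptor that clears insulin-like growth factor 2, and Airn is the noncoding RNA that silences it on the paternal chromosome. Igf2r had 24.1 and 18.9 CPM in the P2-mouse pair, against 26.4 and 22.5 CPM in the embryo pair. The pairs overlapped in Igf2r, with a log2 fold change of -0.18 (SE 0.177), and Airn lay between 2.67 and 4.41 CPM in the 4 libraries. Over all genes tested, 22.3% were called higher in the P2-mouse pair and 20.0% lower. Of 20 genes of the insulin-like growth factor axis tested, 8 rose and 4 fell in the P2-mouse pair, with a median of 0.21. With the offsets 4 rose and 4 fell, with a median of -0.07; without female A 5 rose and 2 fell, with a median of -0.08. None fell without male A, 7 fell without male B, and with sex as a term 5 rose and 2 fell. The phosphoinositide kinase genes Pik3r1 and Pik3ca rose by 0.94 and 0.79, and with the offsets stood at 0.35, still called, and at -0.21, not called. Akt1, a kinase downstream of the receptors, fell by 0.51, and the signalling receptor gene Igf1r fell by 0.60; Akt2 and Igfbp2, a binding protein gene, fell by 0.67 and 0.75. The calls of Akt1 and Igfbp2 were lost with the offsets, at -0.25 and -0.27, and those of Akt2 and Igfbp2 without female A. Grb10, an adaptor that binds and damps insulin and insulin-like growth factor receptors, is itself a member. Grb10 had 101 and 105 CPM in the P2-mouse pair, against 51.8 and 60.1 CPM in the embryo pair. The pairs did not overlap, and the log2 fold change was 0.88 (SE 0.117), and 0.74 with the offsets.

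The Dlk1-Meg3 cluster of chromosome 12 was thinly expressed. Dlk1 encodes a membrane protein of the Notch ligand family, Rtl1 a retrotransposon-derived protein, and Rian a noncoding RNA that hosts small nucleolar RNAs; all 3 were without a count. Meg3, a maternally expressed noncoding RNA of the same cluster, had 8.02 and 4.18 CPM in female A and male A, against 9.50 and 8.57 CPM in males B and C. Male A was the low library, and female A lay just under the embryo pair. The log2 fold change of -0.55 (SE 0.315) was not called, and without female A it was -1.11 and called. Mirg, a host of microRNAs, lay between 3.29 and 5.32 CPM in the 4 libraries. Meg3 shares 10.4% of its words of 50 bases with transcripts of other genes, the most with the listed feature Gm26906. Its count is therefore uncertain, to an extent that was not tested.

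Peg3 encodes a zinc finger protein of the paternal copy, known in mice for effects on growth and maternal behaviour. It had 265 and 248 CPM in female A and male A, against 151 and 159 CPM in males B and C. The pairs did not overlap, with a log2 fold change of 0.72 (SE 0.0898), and with the offsets it was 0.25 and not called. Usp29 is the deubiquitinase gene whose promoter window overlaps that of Peg3 as printed above. Its counted feature is 1 exon part of 2610 bases at chr7:6961160-6963769, which does not reach that window. This feature lay between 0.752 and 1.70 CPM in the 4 libraries, both P2-mouse libraries being the higher. It was not called, at 0.94 (SE 0.476). Zim1, a zinc finger gene beside them known for maternal expression, lay between 0.544 and 0.794 CPM.

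The Prader-Willi and Angelman region of chromosome 7 held both the most abundant member found by symbol and several that were called. Ndn had 634 and 579 CPM in female A and male A, against 549 and 912 CPM in males B and C. Male C alone stood high and male B was the lowest library, so the pairs overlapped, with a log2 fold change of -0.27 (SE 0.205) that was called lower only without male B among the alternatives that leave out a library. Magel2, a relative of Ndn, was called lower. Magel2 had 2.96 and 2.34 CPM in the P2-mouse pair, against 5.46 and 5.64 CPM in the embryo pair, with a log2 fold change of -1.06 (SE 0.279). Its pairs did not overlap, and the call was lost with the offsets, at -0.78, with sex as a term, and without female A or without male A. Mkrn3, which encodes a RING finger protein known as a brake on puberty, had 9.89 and 6.68 CPM in the P2-mouse pair, against 4.13 and 8.23 CPM in the embryo pair. Its pairs overlapped, with male B lowest, and the log2 fold change of 0.43 (SE 0.357) was called only without male C among the fits that leave out a library.

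Peg12 and Ube3a of the same region were called higher. Peg12, a gene of the Frat family of GSK3-binding proteins, had 8.77 and 9.97 CPM in the P2-mouse pair, against 3.76 and 4.30 CPM in the embryo pair. The pairs did not overlap, and the log2 fold change was 1.21 (SE 0.233), and 1.64 with the offsets. Ube3a encodes the ubiquitin ligase lost in Angelman syndrome and is known for expression from the maternal copy in neurons and from both copies in other cells. Ube3a had 100.4 and 105 CPM in the P2-mouse pair, against 47.9 and 47.3 CPM in the embryo pair. Within each pair the libraries differed little, and the log2 fold change was 1.11 (SE 0.105). With the offsets it was 0.32 and still called. Snrpn itself had no row by symbol. A feature named Gm38393 spans all 2159 of its exon bases, which make up 31.6% of the 6831 exon bases of that feature. Gm38393 had 2443 and 2256 CPM in the P2-mouse pair, against 4094 and 3472 CPM in the embryo pair. It was lower in both P2-mouse libraries, with a log2 fold change of -0.69 (SE 0.0982), and -1.60 with the offsets, and it is not counted among the members.

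Members that lie outside these clusters were mixed. Mest, a hydrolase-like gene of the mesoderm, had 57.5 and 51.9 CPM in female A and male A, against 23.3 and 29.0 CPM in males B and C. The pairs did not overlap, with a log2 fold change of 1.07 (SE 0.151). Of its exon bases, 22.9% lie over those of Copg2 on the other strand, and the library kit is not stated to keep strand, so reads of the 2 genes cannot be told apart there. Plagl1, a zinc finger factor known in mice for regulating other imprinted genes, had 57.4 and 48.8 CPM in the P2-mouse pair, against 24.0 and 33.3 CPM in the embryo pair. Its pairs did not overlap, with a log2 fold change of 0.89 (SE 0.182), and the call was lost without female A and with sex as a term. Zdbf2, a zinc finger gene, had 8.81 and 13.3 CPM in the P2-mouse pair, against 6.19 and 3.47 CPM in the embryo pair. Its log2 fold change was 1.19 (SE 0.335), and 0.59 with the offsets, where it was not called; the call was also lost without male A and with sex as a term. Slc38a4, an amino acid transporter gene, was at or under 1.77 CPM in every library, with a log2 fold change of 2.25 (SE 0.591). Its call was lost without female A, without male A, without male C and with sex as a term.

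Impact, Sgce and Rasgrf1 were not called in the edgeR fit. Impact, which encodes an inhibitor of the translation kinase GCN2, had 178 and 184 CPM in the P2-mouse pair, against 174 and 165 CPM in the embryo pair, with a log2 fold change of 0.10 (SE 0.0884). Sgce, the epsilon-sarcoglycan gene, had 52.1 and 55.4 CPM in the P2-mouse pair, against 55.0 and 53.4 CPM in the embryo pair. All 4 libraries of Sgce lay close together, at a log2 fold change of -0.01 (SE 0.115), although with the offsets it was called lower, at -0.35. Rasgrf1, a Ras exchange factor gene of neurons, had 6.70 and 5.73 CPM in the P2-mouse pair, against 7.43 and 7.73 CPM in the embryo pair, with a log2 fold change of -0.28 (SE 0.223). The remaining members beside Sgce on chromosome 6 were low: Peg10, a retrotransposon-derived gene of the placenta, lay between 1.28 and 3.03 CPM, and Asb4, a SOCS box gene, between 0.229 and 0.714 CPM.

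In Nnat and Nap1l5 the embryo libraries stood further from each other than the pair means did. Nnat had 333 and 293 CPM in female A and male A, against 171 and 573 CPM in males B and C. The embryo libraries were the lowest and the highest, and the P2-mouse libraries lay between them. Male C was 3.35-fold above male B, and the log2 fold change between the pairs was -0.25 (SE 0.444); without male C it was 0.83, so its direction rests on that library. Nap1l5, a nucleosome assembly protein gene expressed from the paternal copy in brain, had 141 and 149.9 CPM in the P2-mouse pair, against 50.8 and 130.1 CPM in the embryo pair. Male B alone was low, male C was 2.56-fold above it, and the log2 fold change of 0.69 (SE 0.354) was not called. The pair means of Nap1l5 stood at a ratio of 1.61, and without male C it was called higher. These 2 were the only members of the 29 in which male C was at least 2-fold above male B on CPM plus 0.1, which held for 4.68% of genes tested. None was at least 2-fold lower, against 3.18% of genes. Between female A and male A no member reached a 2-fold ratio on that scale. Each library is described as a single animal, so these ratios have no replicate.

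**Figure D5:**
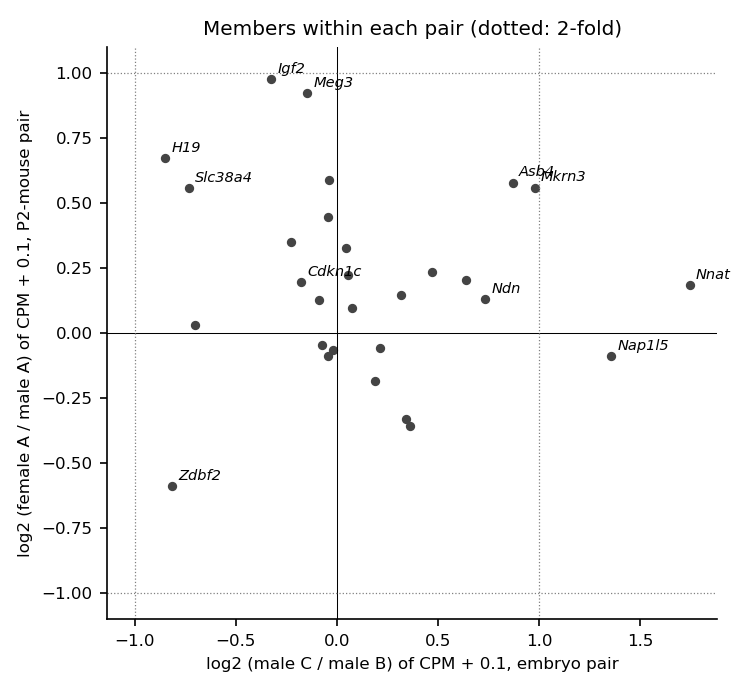
Log2 ratio of male C over male B (x) and of female A over male A (y), on TMM-scaled CPM plus 0.1, for the 29 members that passed the filter, 1 point a gene. Dotted lines mark 2-fold; Nnat and Nap1l5 lie beyond it on the x axis, and Igf2 and Meg3 are the highest on the y axis.

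Sex was compared with the pool description as a term in the edgeR model, a comparison the choice of members did not use. It rests on female A against male A, with the spread taken from male B and male C. None of the 30 members tested was called, at an adjusted p of 0.05, with 0.0239% of all 16708 genes tested called, and DESeq2 called none either. At an unadjusted p under 0.05 there were 2 members, Igf2 and Meg3. Igf2 was higher in female A by 0.99 on the log2 scale (SE 0.289), with an edgeR p of 0.0136 and an adjusted p of 1.00. Meg3 was higher in female A by 0.94 (SE 0.344), with an edgeR p of 0.0324 and an adjusted p of 1.00. Neither passed the correction. Over all genes 270 had an unadjusted p under 0.05, and the 4 called were the Y-linked Kdm5d, Uty, Ddx3y and Eif2s3y, all lower in female A. The comparison is of single libraries, and 1 female library cannot stand for the sex.

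Further genes listed by name as imprinted were looked at beside the members. Whether they are imprinted in these cells was not measured. Of 49 such genes 44 were found and 34 tested. In the P2-mouse pair 4 rose and 9 fell, beside 22.3% and 20.0% of all genes tested, with a median log2 fold change of -0.12. The most abundant was Cd81, a tetraspanin gene at the edge of the Kcnq1 domain, which had 686 and 639.5 CPM in the P2-mouse pair, against 924 and 934 CPM in the embryo pair, and fell by 0.49, a call that was lost with the offsets, at -0.18. Bcl2l1, which encodes a survival protein of the BCL2 family, fell by 0.89. Inpp5f and Nap1l4 were not called, at -0.12 and -0.23, though Inpp5f was called lower with the offsets, at -0.71. The 4 that rose were Dcn, Ppp1r9a, Pon2 and Gnas, at 0.28, 1.15, 0.91 and 1.11, Dcn being a fibroblast marker too. The Gnas feature was low, between 1.65 and 4.40 CPM in the 4 libraries. With the offsets Dcn and Pon2 stood at -0.22 and 0.28 and were not called, and Ppp1r9a stood at 0.56; the calls of Dcn and Gnas were lost without female A. Without male A 2 rose and 4 fell, with sex as a term 2 rose and 5 fell, and 2 rose without female A, without male C or by DESeq2.

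Genes that act on imprints, DNA methylation or chromatin were also measured, and not all of them set or keep imprints. Of 21 tested, 13 rose and 1 fell in the P2-mouse pair, beside 22.3% and 20.0% of all genes tested. Their median log2 fold change was 0.55, against 0.02 over all genes tested. Dnmt3a, the de novo DNA methyltransferase gene, was the 1 that fell. Dnmt3a had 82.8 and 88.9 CPM in the P2-mouse pair, against 144 and 147 CPM in the embryo pair, with a log2 fold change of -0.76 (SE 0.0954). Dnmt1, which copies methylation after replication, had between 45.4 and 47.2 CPM in the 4 libraries and was not called. With the offsets 9 rose, and with sex as a term 8. Cbx5, a heterochromatin protein gene, rose by 0.42, but with the offsets it stood at -0.11 and was not called, and the call was lost without female A. Atrx, a chromatin remodeller gene, rose by 1.95, and by 0.90 with the offsets. Tet3, an oxidase of methylated cytosine, was not called, at 0.08. Zfp57, the zinc finger factor that protects imprints, had 69.9 and 51.8 CPM in the P2-mouse pair, against 68.1 and 47.6 CPM in the embryo pair. Its pairs overlapped, and it was not called.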

How the data were processed

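Sorted cells gave RNA that was amplified with a SMARTer Ultra Low Input kit, per the labels' protocols. Counts of reads per gene were made by the authors with featureCounts 1.4.5 (Subread) on GRCm38.p2; the tools and build are those of the submitters' processing notes. CPM as deposited is the count scaled to the library's sum of gene counts, as recomputed here. The deposited RPKM column is CPM over exon length in kilobases, per the file headers. The sources used here name no aligner, strand setting or rule for multiple matches. Symbols came from GENCODE M21 (40254 of 41388 genes), coordinates from the deposited files and promoter windows from RefSeq (GRCm38.p6). Levels are CPM scaled by TMM factors of 0.961 to 1.048.

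Pairs were compared in R 4.3.3 by the quasi-likelihood F test of edgeR 4.0.16, after filterByExpr had kept genes with a minimum count of 10 and a total of 15, and p-values were adjusted by Benjamini-Hochberg with 0.05 as the threshold. The SE is the log2 fold change over the square root of F. As alternatives, size factors by relative log expression, no filter, a filter at 5 CPM, sex as a term, DESeq2 1.42.0, limma-voom (limma 3.58.1), offsets for GC content and length (mgcv 1.9.3) and leaving out each library were run. The tests were checked on simulated data. Libraries are described as single animals, so p-values measure the spread between these 4 libraries, and counting limits do not cover PCR duplicates. The members and gene lists were chosen with earlier results of these data known. All members are named, those with a mean of at least 5 CPM by library. Of each other list the 4 most abundant genes and any that a count of 5 or fewer refers to are named, except that not every gene this takes is reported here, and some further genes were chosen after their values were seen.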

Additional observations from a re-analysis of the deposited data

How the results depend on the processing

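Of the 10 members called higher in the P2-mouse pair, 5 were called higher under every alternative run: Cdkn1c, Peg12, Ube3a, Mest and Grb10. The number called higher stayed within 1.5 times of 10 under each alternative. The number called lower, 2, was 4 with no filter on low counts, 1 with a mean of at least 5 CPM, 0 with sex as a term, 1 with the GC content and length offsets, and between 0 and 4 with each library left out. With the offsets 7 of the 10 were still called higher, and without female A 8. The log2 fold change of Nnat lay between -0.88 (without male B) and 0.83 (without male C) with each library left out, called in both, and was 0.21 with the offsets. In the comparison of female A with the males, 0 members were called higher, and between 0 and 9 when a male was left out along with the pool term; the 9 came without male A, where only the embryo pair was left to compare with. Ranks by CPM instead of RPKM changed for 27 of the 34 members. The labels give no replicate letter shared across the pairs. No paired analysis was possible because the letters A, B and C only name libraries. Depth limits members near the floor of 3 counts, 0.107 to 0.173 CPM in a library, such as Phlda2 and Ascl2.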
